A study of Homo sapiens with 4 samples.

Results

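The metallothioneins measured here were 8 genes, MT1A, MT1E, MT1F, MT1G, MT1L, MT1M, MT1X and MT2A, and they were described with MTF1, the transcription factor that switches metallothionein genes on. The 9 genes were chosen by name from the 27940 gene symbols of the deposited expression tables, by a rule that uses no measured value, although with earlier results of these data known, and each was found once. RNA was taken from U87, an established human glioma cell line grown in DMEM with serum. Cells of the control group, called shNC, carried a lentivirus made from the FUGW-H1 vector without a hairpin, and cells of the other group, called shPTPRN3, carried the same kind of virus with a short hairpin RNA directed at PTPRN, a receptor-type tyrosine phosphatase of secretory granules. The comparison asked what lowering PTPRN changed in the transcriptome of these cells. Each group had 2 libraries, numbered 1 and 2, made with a stranded mRNA kit. The design text calls the 2 libraries of a group biological replicates and the control H1-RFP (WT). Whether each had its own culture or infection is not stated, so p-values cover the variation from library to library, part of which may be technical. The shPTPRN3 group rests on 1 hairpin.

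Metallothioneins are small proteins in which cysteines bind zinc, copper and cadmium, and they buffer free zinc in the cell. MTF1 carries zinc fingers that sense rising zinc. It then binds short DNA elements called metal response elements in front of metallothionein genes and of SLC30A1, which exports zinc. Glucocorticoids and oxidative stress also raise metallothionein transcription. In the brain, astrocytes express MT1 and MT2 genes and MT3 is the form known from neurons.

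The 8 genes lie side by side on chromosome 16 of hg38, from MT2A at chr16:56608584-56609497 to MT1X at chr16:56682470-56684196, a span of 75.6 kb. Between them lie MT1L (chr16:56617461-56618818), MT1E (chr16:56625781-56627112), MT1M (chr16:56632659-56633981), MT1A (chr16:56638666-56640087), MT1F (chr16:56657943-56659303) and MT1G (chr16:56666730-56668065). MT1G is on the minus strand and the other 7 are on the plus strand. MT1L is annotated by RefSeq as a transcribed pseudogene, and the other 7 as protein-coding. MTF1 lies apart, on the minus strand at chr1:37809575-37859592. The longest basic GENCODE transcripts of MT2A, MT1X, MT1E, MT1F and MT1L have 786, 538, 729, 690 and 411 bases, against 7972 bases for MTF1.

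The coding sequences of the 4 most abundant members are shown because they are the near-copies whose reads had to be told apart, and because they show the metal-binding design. They are the GENCODE 29 coding sequences, 5′ to 3′ with the stop codon, and capitals mark the bases at which a sequence has another letter than MT2A.
MT2A: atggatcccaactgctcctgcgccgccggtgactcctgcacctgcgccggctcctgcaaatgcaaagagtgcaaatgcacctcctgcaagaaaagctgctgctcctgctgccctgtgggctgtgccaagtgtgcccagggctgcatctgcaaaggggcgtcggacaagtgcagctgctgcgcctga
MT1X: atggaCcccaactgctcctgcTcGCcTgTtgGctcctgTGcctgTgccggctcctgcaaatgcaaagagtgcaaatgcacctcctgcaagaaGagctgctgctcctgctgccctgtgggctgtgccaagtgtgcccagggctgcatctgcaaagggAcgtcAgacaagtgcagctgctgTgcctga
MT1E: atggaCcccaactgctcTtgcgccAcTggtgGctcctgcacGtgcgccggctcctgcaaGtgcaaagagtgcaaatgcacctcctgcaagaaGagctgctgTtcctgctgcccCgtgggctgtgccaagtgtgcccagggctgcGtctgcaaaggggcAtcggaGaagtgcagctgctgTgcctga
MT1F: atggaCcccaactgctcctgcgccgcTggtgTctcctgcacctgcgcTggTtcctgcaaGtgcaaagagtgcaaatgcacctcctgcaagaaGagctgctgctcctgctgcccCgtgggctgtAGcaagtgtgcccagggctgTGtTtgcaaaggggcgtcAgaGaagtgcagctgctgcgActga
Each has 186 bases, and 20 of its 61 codons before the stop (32.8%) encode cysteine. MT1X and MT1E were 92.5% identical to MT2A and MT1F was 91.4% identical. Over the 15 pairs among the 6 members with a coding sequence of this length, identity ran from 88.7 to 94.6% with a median of 91.9%. Outside the coding sequence the transcripts diverge. Of all 31-base windows of the MT2A transcripts, 7.25% also occur in another metallothionein transcript, against 5.30% for MT1X, 3.25% for MT1F, 15.6% for MT1E and 16.3% for MT1L. The rarer MT1A, MT1G and MT1M share 18.9, 23.3 and 23.8% of their windows. Values of these genes are therefore less certain as gene-specific values, because the counting may have moved reads between copies. The percentages are over all windows of a gene's transcripts, so they do not rank the genes by certainty. MT1F shared 63 of its 1941 windows and MT1L shared 62 of 381.

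The promoters of MT2A and MT1X are shown because metal response elements are the sites through which MTF1 acts. They are RefSeq windows (GRCh38.p14) from 250 bases before to 50 bases after the start, 300 bases each, on the plus strand at chr16:56608334-56608633 for MT2A and chr16:56682220-56682519 for MT1X. Capitals mark matches to the core TGCGCNC or TGCACNC on either strand, and no 2 matches overlap.
MT2A: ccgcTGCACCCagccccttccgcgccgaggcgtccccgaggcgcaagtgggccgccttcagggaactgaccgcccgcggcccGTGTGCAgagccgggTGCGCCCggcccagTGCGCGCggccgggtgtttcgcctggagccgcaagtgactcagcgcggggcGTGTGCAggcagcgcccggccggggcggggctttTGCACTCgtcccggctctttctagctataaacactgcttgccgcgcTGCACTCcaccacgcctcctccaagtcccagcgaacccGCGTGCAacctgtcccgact
MT1X: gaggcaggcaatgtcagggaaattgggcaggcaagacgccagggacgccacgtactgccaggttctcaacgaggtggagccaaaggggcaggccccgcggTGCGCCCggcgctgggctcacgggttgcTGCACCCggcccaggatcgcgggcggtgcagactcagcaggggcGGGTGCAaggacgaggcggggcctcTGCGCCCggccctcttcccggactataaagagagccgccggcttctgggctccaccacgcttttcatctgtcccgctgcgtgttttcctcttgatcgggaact
MT2A had 8 matches and MT1X had 4, while the window of MTF1 itself had 0. Among the 35116 promoters of the same length, 29.6% held at least 1 match, 0.601% at least 4 and 0.0199% at least 8. Of the 9 members, 3 had a promoter in the table. A match is a match of letters and was not measured as binding.

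MT2A was the most abundant metallothionein. Levels are given as FPKM, the fragments of a gene per kilobase of its transcript, relative to all mapped fragments, after each library was divided by a median-ratio factor between 0.942 and 1.05. In shNC, MT2A reached 14069 FPKM in library 1 and 4336 FPKM in library 2. In shPTPRN3 it reached 4613 FPKM in library 1 and 1161 FPKM in library 2. Within each number the shNC library was the higher one, but shPTPRN3 library 1 lay above shNC library 2, so the groups overlapped. The means were 9203 ± 6882 FPKM in shNC and 2887 ± 2441 FPKM in shPTPRN3 (SD, n = 2). The log2 difference, shPTPRN3 minus shNC on the log2(FPKM + 1) scale, was -1.75 with a standard error of 1.03. It did not pass the test (limma adjusted p = 0.493 over 11394 genes). In bulk RNA, fewer cells that express a gene and less RNA per cell cannot be told apart.

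MT1X was the single tested member whose groups did not overlap. Libraries 1 and 2 of shNC gave 1521 and 409 FPKM, and those of shPTPRN3 gave 403 and 87.4 FPKM. The gap between the lower shNC library and the higher shPTPRN3 library was small beside the spread inside either group. Its means were 965 ± 787 and 245 ± 223 FPKM (SD, n = 2), a log2 difference of -2.06 with a standard error of 0.90 (limma adjusted p = 0.386). Over all genes tested, 23.1% had both shPTPRN3 libraries below both shNC libraries, so 1 of the 6 tested members with this order is near the background. In the other direction, both shPTPRN3 libraries above both shNC libraries, the count was 0 of 6 members against 21.5% of all genes tested.

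MT1E gave 891 and 245 FPKM in libraries 1 and 2 of shNC, against 421 and 81.9 FPKM in those of shPTPRN3. Its means were 568 ± 457 and 251 ± 240 FPKM (SD, n = 2), with a log2 difference of -1.33 ± 0.91 (standard error, limma adjusted p = 0.568). shPTPRN3 library 1 lay above shNC library 2, as for MT2A. Without shPTPRN3 library 2 the log2 difference of MT1E was -0.13, and without shPTPRN3 library 1 it was -2.50. Without shNC library 1 or 2 it was -0.39 and -2.26. For MT1X these values were -0.95 and -3.16, and without shNC library 1 or 2 they were -1.11 and -3.01.

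MT1F gave 132 and 40.3 FPKM for shNC against 62.1 and 20.3 FPKM for shPTPRN3, a log2 difference of -1.01 ± 0.70 (standard error, limma adjusted p = 0.571). MT1L, the pseudogene, gave 69.9 and 28.8 FPKM against 47.5 and 7.21 FPKM, a log2 difference of -1.20 ± 0.83 (standard error, limma adjusted p = 0.569). The groups overlapped in the same way for these 2 genes, with shPTPRN3 library 1 above shNC library 2. The direction of MT1L rests on 1 library. Without shPTPRN3 library 2 its log2 difference was 0.09. MT1F was at -0.17 without shNC library 1 and at -0.21 without shPTPRN3 library 2, and at -1.86 and -1.80 without shNC library 2 or shPTPRN3 library 1.

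The last 3 metallothioneins were near or at 0. MT1M was at 1.52 and 0.646 FPKM in shNC and at 1.66 and 0 FPKM in shPTPRN3. MT1G was at 0.364, 0, 0.113 and 0 FPKM in the same order of libraries, and MT1A was listed at 0 in all 4. MT1M had a deposited mean of 0.987 FPKM, just under the minimum of 1 FPKM for testing, so 6 of the 9 members were tested. An FPKM of exactly 0 in such tables can be a failed estimate.

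MTF1 ran the other way. Its level was 1.75 and 3.60 FPKM for shNC libraries 1 and 2, against 3.23 and 5.63 FPKM for the libraries with the hairpin. The library with the lowest MTF1 was the one with the most MT2A, and the library with the highest MTF1 had the least MT2A. The means were 2.67 ± 1.31 and 4.43 ± 1.69 FPKM (SD, n = 2), and the groups overlapped. The log2 difference was 0.57 with a standard error of 0.39 (limma adjusted p = 0.566). Across the 4 libraries the log2 values of MTF1 and MT2A had a correlation of -0.99, a description over n = 4 libraries that also differ in depth. MTF1 has a long transcript and MT2A a short one. Between library 2 and library 1, genes of at least 4000 bases had median log2 differences of 0.42 in shNC and 0.20 in shPTPRN3. Other genes under 1000 bases had -0.96 and -0.59. The part of transcript length in this correlation was not tested.

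**Figure D1:**
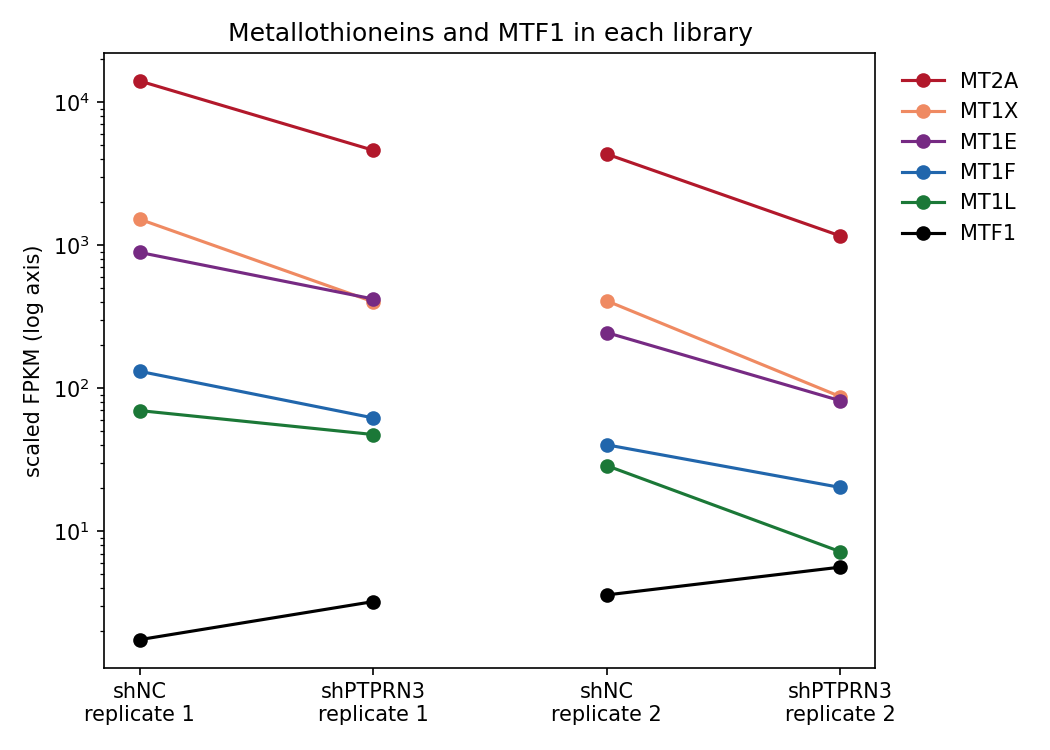
Scaled FPKM (vertical log axis) of the 6 tested members in each library (horizontal axis), with 1 colour per gene and lines joining the shNC and shPTPRN3 libraries of the same number, which the labels do not state to be paired. For each of the 5 metallothioneins library 1 lies above library 2 of the same group and both lines slope down, while both lines of MTF1 slope up.

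None of the 6 tested members passed the limma test at an adjusted p of 0.05. Of these members, 0 had an unadjusted limma p under 0.05, against 1533 of all 11394 genes tested. Over all genes 48 of 11394 passed (0.421%), 39 of them lower in shPTPRN3 (0.342%). With each library rescaled to TPM, 30 passed, 20 of them lower. The median log2 difference of the 5 tested metallothioneins was -1.33, and the median over all genes tested was -0.01. With 2 libraries against 2, an exact two-sided permutation test of a single gene cannot give a p under 0.333.

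The replicate number divided the metallothioneins as much as the hairpin did. Library 1 exceeded library 2 in MT2A by 3.24-fold within shNC and by 3.97-fold within shPTPRN3. For the hairpin, the shNC library exceeded the shPTPRN3 library by 3.05-fold within number 1 and by 3.74-fold within number 2. MT1X showed 3.72-fold and 4.61-fold between replicates, and 3.78-fold and 4.67-fold between groups. For MT1E the replicate ratios, 3.64-fold and 5.14-fold, were larger than the group ratios of 2.12-fold and 2.99-fold. The same held for MT1F, with 3.27-fold and 3.06-fold against 2.12-fold and 1.99-fold. MT1L had replicate ratios of 2.43-fold and 6.59-fold, against group ratios of 1.47-fold and 3.99-fold.

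Read within a number, the 5 tested metallothioneins were lower with the hairpin in both cases, and MTF1 was higher, by 0.62 and 0.53 on the log2 scale. The log2 difference within numbers 1 and 2 was -1.61 and -1.90 for MT2A, -1.91 and -2.21 for MT1X, and -1.08 and -1.57 for MT1E. It was -1.07 and -0.96 for MT1F and -0.55 and -1.86 for MT1L. Differences beyond -1 within both numbers were seen in MT2A, MT1X and MT1E, 3 of the 5 tested metallothioneins, and in 4.03% of all genes tested. A limma fit with the replicate number as a block called 5 members, all lower metallothioneins, but it called 19.0% of all genes. Adjusted p-values in that limma fit were 7.26e-04 for MT2A and 2.27e-05 for MT1X, against 0.132 for MTF1. The labels give the numbers 1 and 2 in both groups without saying that a number marks a shared culture or day, so this fit rests on a pairing that the labels do not state.

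The sum of the 8 metallothioneins showed the same pattern as MT2A, which made up 84.3, 85.7, 83.1 and 85.5% of it. In shNC the sum came to 16684 and 5060 FPKM, and with the hairpin to 5548 and 1358 FPKM. The sum took 3.63 and 1.58% of all FPKM in the control libraries, and 1.43 and 0.407% in those with the hairpin. Each deposited FPKM comes with a confidence interval, and by the midpoints of these intervals the shares were lower, at 2.13 and 0.904% in the control libraries and 0.821 and 0.233% with the hairpin. The ratio of its group means was 3.15. shPTPRN3 library 1 exceeded shNC library 2 by 1.10-fold. The mix within the sum moved less than its size. MT1X took 9.12 and 8.08% in shNC and 7.26 and 6.44% in shPTPRN3, and MT1E took 5.34, 4.84, 7.59 and 6.03% in the same library order.

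Metallothionein transcripts are short, and short transcripts as a class followed the replicate number. Among the 548 other tested genes whose longest basic transcript has fewer than 1000 bases, the median log2 difference between library 2 and library 1 was -0.96 in shNC and -0.59 in shPTPRN3. The 4250 genes with at least 4000 bases had medians of 0.42 and 0.20 in the same 2 comparisons. For MT2A the differences were -1.70 and -1.99, and for MT1F -1.68 and -1.57. Both replicate differences were as far down as those of MT2A in 12 of the 548 short genes. Transcripts under 1000 bases, without the metallothioneins, took 26.6 and 19.2% of the FPKM of the shNC libraries and 23.1 and 17.1% of that of the shPTPRN3 libraries, which is the same order of libraries as MT2A. The part of transcript length in the differences between replicates was not tested further.

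Between the groups the short genes moved little as a class. Their median log2 difference, shPTPRN3 minus shNC, was -0.16, against -1.75 for MT2A, and 20 of the 548 lay at or below MT2A while 55 lay at or below MT1F. Within numbers 1 and 2 the medians were -0.38 and 0.00. Of the 141 short genes whose mean was 100 FPKM or more, 0 lay at or below MT2A and 3 at or below MT1F.

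**Figure D2:**
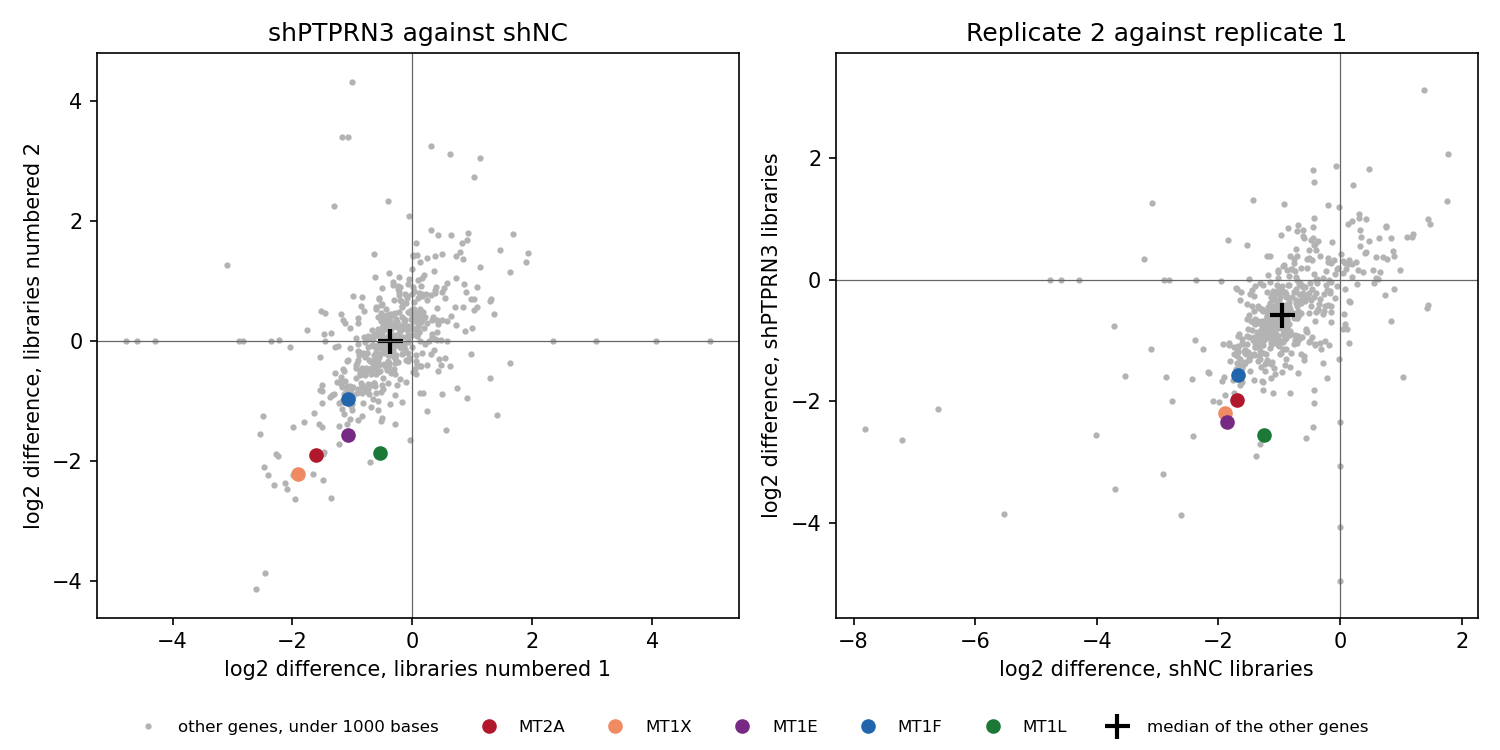
Log2 differences of tested genes with transcripts under 1000 bases; on the left shPTPRN3 minus shNC in libraries numbered 1 (horizontal) and 2 (vertical), on the right replicate 2 minus replicate 1 in shNC (horizontal) and shPTPRN3 (vertical). Grey points are the 548 other short genes, the cross is their median, and coloured points are the 5 tested metallothioneins, which lie below 0 on all 4 axes.

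When each library was scaled by its short genes alone, in place of all genes, MT2A and MT1X passed the test. The log2 difference of MT2A was then -1.55 (limma adjusted p = 6.62e-04) and that of MT1X -1.86 (limma adjusted p = 0.0094). Called genes were 0.614% of all genes tested under that scaling, and the median of all genes moved to 0.15. Removing trends with length and GC content from each library gave MT2A a log2 difference of -1.59 (limma adjusted p = 0.139), which did not pass. The direction of the 5 metallothioneins was the same under these scalings, and whether they passed was not.

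**Figure D3:**
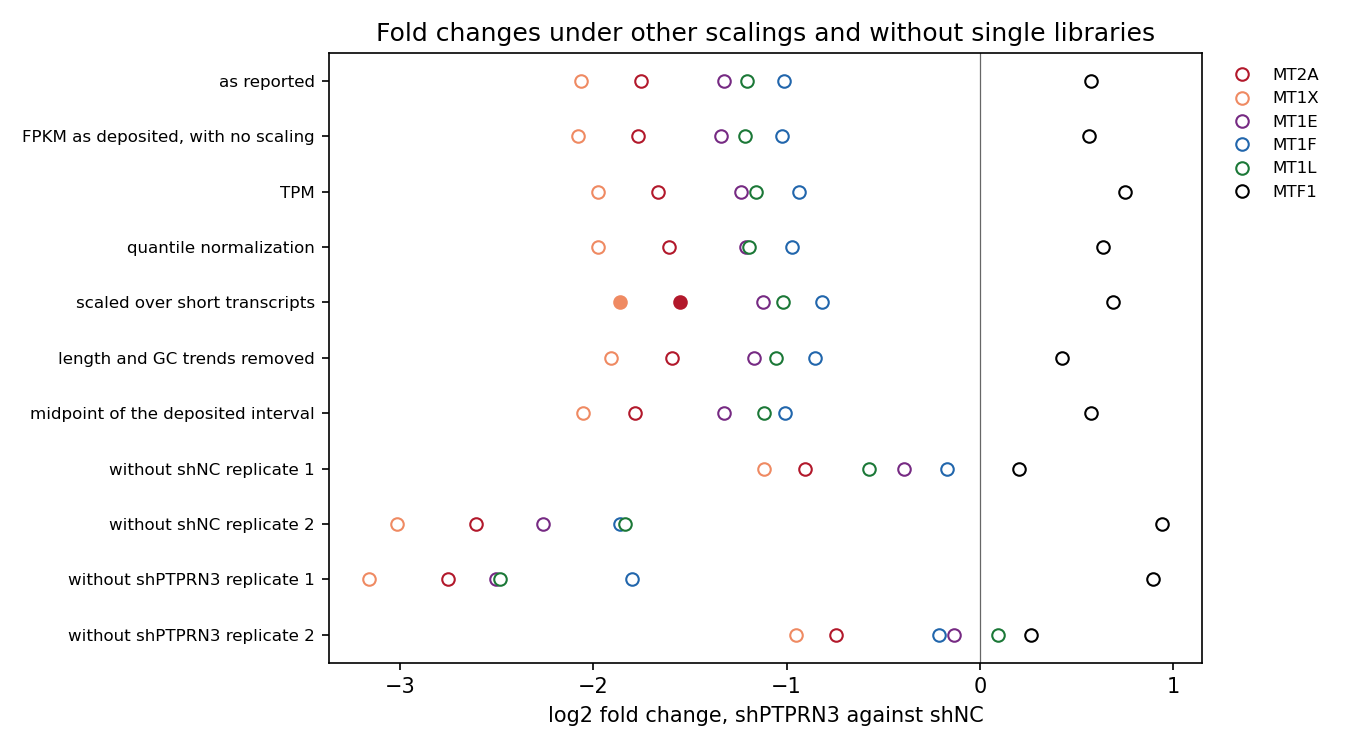
Log2 difference, shPTPRN3 minus shNC (horizontal axis), of the 6 tested members as reported, under 6 other scalings or readings of the tables, and without each library in turn (vertical axis). Filled points had a limma adjusted p under 0.05 and open points did not; the filled points are MT2A and MT1X with scaling on short transcripts, and MT1L without shPTPRN3 replicate 2 is the one metallothionein value above 0.

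The order of abundance was MT2A, MT1X, MT1E, MT1F, MT1L by group mean in shNC, with MT1M, MT1G and MT1A near 0. MT2A stood above each other member in all 4 libraries. MT1X and MT1E were not separated beyond their spread, since their shPTPRN3 means were 245 and 251 FPKM. Their order also depended on which deposited column was read. The FPKM of MT2A, MT1X and MT1L lay outside its own interval in all 4 libraries, at 1.55 to 2.11 times the midpoint, so the levels given for these genes depend on the column. By interval midpoints MT1X lay below MT1E in all 4 libraries (787 against 930 in shNC library 1), and by FPKM above it in 3 of 4. The group differences moved little with this choice, with a log2 difference of -1.79 for MT2A by midpoints (limma adjusted p = 0.446).

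Fragment numbers were estimated from the deposited intervals. If the intervals are read as counting error, MT2A rested on 51068 and 7327 fragments in shNC and on 20229 and 2178 in shPTPRN3. The FPKM of MT2A, MT1X and MT1L lay outside these intervals in each library, so the fragment numbers of these genes are uncertain. MT1L rested on 280, 66.3, 293 and 18.9 fragments, the fewest of the tested metallothioneins. Relative depth, read from how wide the intervals of single-exon genes are, was 1, 0.660, 1.61 and 0.637 in the 2 shNC and 2 shPTPRN3 libraries. The 2 libraries numbered 2 were thus the shallower ones, and their metallothionein levels were the lower ones in each group. The deepest library, shPTPRN3 library 1, was not the one with the most metallothionein RNA.

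Metallothionein genes outside the 8 were read as a further group. Of 13 such genes and pseudogenes listed, 8 were in the tables, 7 of them in the chromosome 16 cluster or beside it and MT1HL1 on chromosome 1. The 3 that were tested lie on chromosome 16, with 0 called and a median log2 difference of -1.53. MT1H had 146 and 60.4 FPKM without and 41.8 and 18.9 FPKM with the hairpin, without overlap of the groups. Its FPKM also lay outside its own interval in all 4 libraries, at 1.81 to 2.05 times the midpoint. Its log2 difference was -1.70 with a standard error of 0.56 (limma adjusted p = 0.256). The pseudogene MT1DP was at 3.68 and 2.34 against 0.865 and 0 FPKM (limma adjusted p = 0.161). It was near the floor, and with means of 3.01 FPKM in shNC and 0.432 FPKM in shPTPRN3 it was tested because of its shNC level. MT3 was at 6.58 and 0 against 2.50 and 0.317 FPKM, a log2 difference of -0.36 (limma adjusted p = 0.913). Within numbers 1 and 2 its differences were -1.12 and 0.40, so its direction was not the same in both. Within 100 kb of the cluster the tables held 17 genes, 15 of them metallothionein genes or pseudogenes. The other 2 were BBS2, a ciliary trafficking protein, with a log2 difference of -0.01 (limma adjusted p = 0.993), and NUP93, a nuclear pore protein, with -0.75 (limma adjusted p = 0.371). BBS2 had 12.7 and 17.9 FPKM in shNC and 16.5 and 13.5 FPKM in shPTPRN3, so the order of libraries seen in MT2A was not seen in it. NUP93 had 25.6 and 21.4 FPKM in shNC and 14.3 and 12.9 FPKM in shPTPRN3. Like MT2A it was lower with the hairpin within both numbers and higher in library 1 of each group. Its groups did not overlap.

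**Figure D4:**
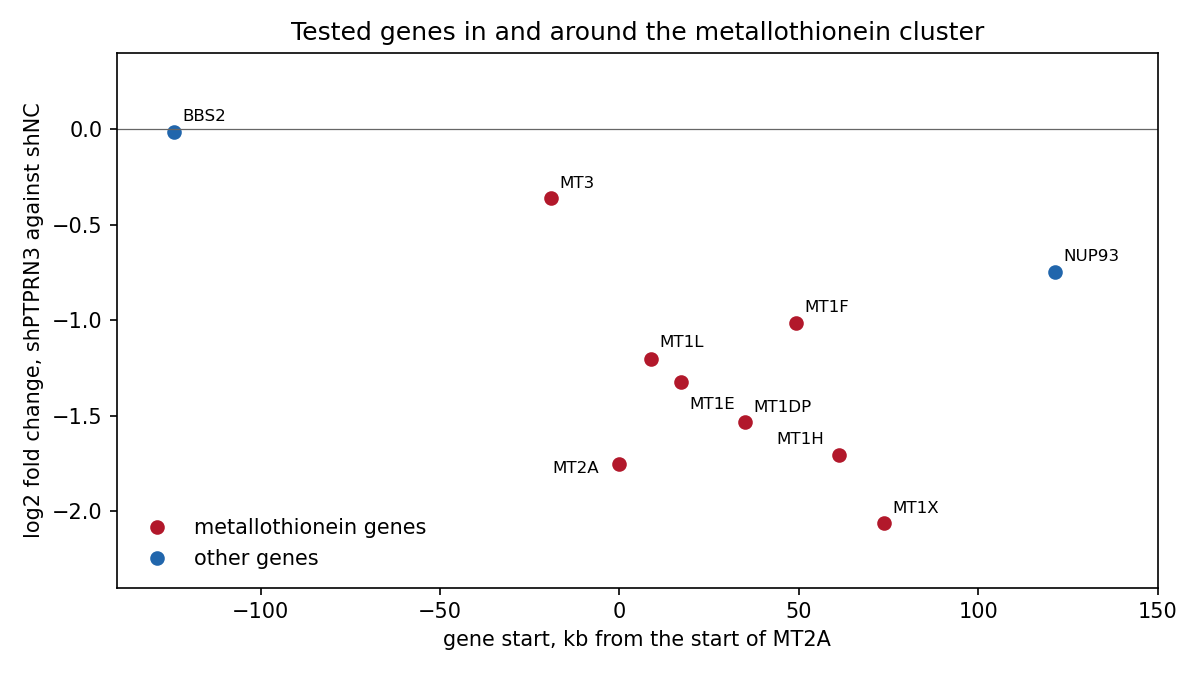
Log2 difference, shPTPRN3 minus shNC (vertical axis), of the 10 tested genes in and around the chromosome 16 cluster, by the distance of the gene start from that of MT2A in kb (horizontal axis), with metallothionein genes in red and others in blue. MT2A, MT1L, MT1E, MT1DP, MT1F, MT1H and MT1X lie at or below -1.01, and BBS2, MT3 and NUP93 lie between -0.75 and -0.01.

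The genes most like MT2A in profile were sought among 7267 genes whose mean was 5 FPKM or more, by the Euclidean distance of centred log2 values over the 4 libraries. The nearest outside the members were HMGN2 (distance 0.361), a nucleosome-binding protein, CENPW (0.372), a centromere protein, and SNHG19 (0.396), a non-coding RNA that hosts small nucleolar RNAs. HMGN2 had 133 and 52.6 FPKM without and 52.3 and 9.71 FPKM with the hairpin. MT1X had a distance of 0.367, and MT1E, MT1L and MT1F had 0.511, 0.754 and 0.799. A correlation of at least 0.95 with MT2A over the 4 libraries was found in 514 of the 7267 genes. A correlation takes no account of the size of the differences, so this count does not say how many genes changed as much as MT2A.

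The genes that move zinc were read as a list around MTF1 and the metallothioneins. Of 10 zinc exporters, 5 were tested and 0 were called in either direction, with a median log2 difference of 0.33. SLC30A1, the plasma membrane exporter and a known target of MTF1, stood at 7.92 and 12.3 FPKM in shNC and at 15.6 and 16.4 FPKM in shPTPRN3. Its log2 difference was 0.64 (limma adjusted p = 0.456), opposite in sign to that of MT2A. SLC30A7, which loads zinc into the secretory pathway, had a log2 difference of 0.62 (limma adjusted p = 0.434).

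Of 14 zinc importers, 11 were tested and 0 were called, with a median of 0.38. SLC39A14, which imports zinc, iron and manganese, stood at 32.0 and 51.5 FPKM in shNC and at 10.5 and 10.4 FPKM in shPTPRN3. The groups did not overlap, and the replicates within shPTPRN3 were close, unlike those of the metallothioneins. Its log2 difference of -1.86 missed the threshold (limma adjusted p = 0.0823). SLC39A10, another plasma membrane importer, had a log2 difference of 0.90 (limma adjusted p = 0.403).

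Of 14 copper-handling genes, 12 were tested, with a median of 0.16. Of these, 1 was called higher and 0 lower, against 0.421% of all genes tested called in either direction. The called gene was SLC31A2, a copper transporter, listed at 0 in both shNC libraries and at 15.4 and 22.0 FPKM in shPTPRN3 (limma adjusted p = 0.00467). It passed the filter on low values through shPTPRN3 alone. Its locus overlaps that of FKBP15, and a listed 0 can be a failed estimate, so no fold is given. Of 10 glucocorticoid-response genes 8 were tested and 0 were called, with a median of 0.26. Of these 8, 5 had a positive log2 difference and 3 a negative one. The largest were those of CEBPD and TSC22D3, both induced by glucocorticoids, at 0.65 (limma adjusted p = 0.531) and 0.53 (limma adjusted p = 0.483).

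PTPRN, the target of the hairpin, stood at 27.6 and 19.8 FPKM in shNC and at 4.97 and 3.63 FPKM in shPTPRN3. Its log2 difference was -2.22 with a standard error of 0.34 (limma adjusted p = 0.0594), and the ratio of shNC to shPTPRN3 was 5.56 within number 1 and 5.47 within number 2. Of 10 glial and mesenchymal glioma markers 6 were tested and 0 were called. VIM was at 1193 to 2099 FPKM, CD44 at 84.6 to 97.8 FPKM and CHI3L1 at 298 to 665 FPKM. GFAP was listed at 0 in all 4 libraries and S100B, OLIG2 and SOX2 were under 1 FPKM, so the defining glial markers were listed at 0 or at low levels. NES and TNC had the largest log2 differences of that list, -0.94 (limma adjusted p = 0.289) and 0.90 (limma adjusted p = 0.475). The 8 markers of other cell types were all under 1 FPKM, the highest at 0.847, and their summed level was 2.69 and 3.13 FPKM in shNC and 1.92 and 2.68 FPKM in shPTPRN3.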

How the data were processed

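The deposited tables give FPKM per gene with a confidence interval, made by the authors with STAR 2.6.0b-1 and Cufflinks 2.2.1.2 on hg38 after FastQC 0.72, per the submitters' processing notes. Which annotation, strand setting and options they used is not given in the sources used here. Each table had 33646 gene rows, of which 651 with a status other than OK were left out, and the FPKM of the rest were summed per symbol.

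Libraries were scaled by median ratios over 9988 genes. Genes whose mean reached 1 FPKM, and PTPRN, were tested on log2(FPKM + 1) with limma 3.58.1 in R 4.3.3, with an intensity trend, the 2 groups as the sole term and Benjamini-Hochberg adjustment over all 11394 genes. The residual degrees of freedom were 2. A log2 difference on this scale understates the change of low genes. The procedure was run on simulated data with known changes. These data had independent noise in each library and no effect of replicate number or transcript length, so the run does not cover such effects. FPKM is not a count, so no count test was run, and depth was estimated from interval widths. Lengths, GC content and coding sequences came from GENCODE 29.

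The members and lists were chosen with earlier results of these data known. Named genes were all members, the called genes of each list or else the 2 tested genes with the largest differences, the 3 genes nearest to MT2A in profile, the genes within 100 kb of the cluster, and PTPRN. Alternatives varied the scaling, pseudocount, filter, variance model, row handling, length and GC trends, replicate block and the libraries used.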

Additional observations from a re-analysis of the deposited data

How the results depend on the processing

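The 5 tested metallothioneins stayed lower in shPTPRN3 under each scaling, pseudocount, filter and variance model tried. Leaving out single libraries turned 1 of them: MT1L without shPTPRN3 library 2. The number of members called was 0 under the other settings, 2 with scaling on short genes, 5 with the replicate block and 4 with the replicate block plus removal of length and GC trends. No shared culture or day is stated for the numbers, so libraries share only a number. The deviations of same-numbered libraries from their group means had r = 0.52. With 2 libraries per group these deviations mirror each other, so different-numbered libraries had r = -0.52 by construction. Differences with transcript length between libraries 1 and 2 ran the same way in both groups. This r therefore cannot decide whether the libraries were paired. The limma count of genes called, 48, became 31 with FPKM as deposited, 30 with TPM (10 higher and 20 lower, against 9 and 39), 23 with a pseudocount of 0.1, 8 with a mean of at least 5 FPKM, 26 without the trend, 160 with robust estimation and 219 without genes listed at 0. With no filter limma called 0 genes, while 2163 had an unadjusted p under 0.05. It called 183 with length and GC trends removed, 2168 with the replicate block and 1585 with both.

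The log2 ratio of the summed metallothioneins, -1.65, ran from -3.00 to -0.55 when each library was left out in turn, and the count of genes called from 58 to 199. MT2A was at -0.90 without shNC library 1 and to -0.74 without shPTPRN3 library 2, and reached -2.61 and -2.75 without shNC library 2 or shPTPRN3 library 1. In these fits a group of 1 library is assumed to vary like the other. Interval midpoints, and the sum with other metallothionein genes, were alternatives chosen after seeing the data. MT2A rested on an estimated 2178 fragments or more in each library, and MT1L on as few as 18.9. By this estimate depth limits MT1L most among the tested metallothioneins. It is uncertain, since the FPKM of both genes lay outside the intervals it was read from.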
